A study of Mus musculus with 6 samples.

Results

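The genes described here are those of the unfolded protein response of the endoplasmic reticulum (ER), measured by RNA-seq in cultured mouse CD8+ effector T (Teff) cells. A list of 36 genes was matched by symbol to the gene rows shared by all 6 libraries. Of these, 34 were found among 34745 rows, and *Selenos* and *Selenok* had no row under those symbols. Levels are given as FPKM, fragments per kilobase of gene model scaled to the library total, and a mean of at least 1 FPKM was met by 9627 genes, and 32 of the 34 were among them. *Ern1* and *Derl3* lay under this minimum.

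The study asked how loss of stearoyl-CoA desaturase 1 (Scd-1), which makes monounsaturated from saturated fatty acids, changes Teff cells. There were 3 libraries from wild-type (WT) C57BL/6J mice and 3 from *Scd-1-/-* mice (B6.129-Scd1tm1Ntam/J), whose allele is a germline one and not restricted to T cells. Splenic CD8+ T cells of both genotypes received 5 μg/mL anti-CD3 and 0.5 μg/mL anti-CD28 with 100 U/mL IL-2 for 3 days, were washed, and were kept for 3 more days in IL-2 before harvest on day 6. The libraries carry replicate numbers 1 to 3 in each genotype. The methods speak in general of independent experiments, but no source says for these libraries whether they came from separate mice or cultures, so p-values measure the spread between these libraries, which may be technical.

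Totals ran from 14034479 to 15866216 counts per library, with TMM scaling factors from 0.986 to 1.03. *Scd1*, the targeted gene, had 58.2, 45.3 and 54.7 FPKM in the WT libraries and 0.398, 0.528 and 0.261 FPKM in the *Scd-1-/-* libraries, so the libraries matched their labels. All 8 CD8 T cell markers were detected, with a summed level of 4933 to 5499 FPKM in WT and 6394 to 8127 FPKM in *Scd-1-/-* libraries. The higher sum was that of *Gzmb* (2428 to 2668 FPKM in WT, 3509 to 5416 FPKM in *Scd-1-/-*). The other 7 markers summed to 2441 to 3004 FPKM and 2519 to 2886 FPKM, and *Cd8a* was lower in every *Scd-1-/-* library (27.9 to 36.6 FPKM, against 43.2 to 47.6 FPKM in WT). Of 8 B cell markers, 6 were under 1 FPKM in every library, but the sum was 146 to 270 FPKM in WT and 98.0 to 147 FPKM in *Scd-1-/-* libraries, nearly all of it *Ighm*. Of 8 plasma cell markers, which include *Xbp1* and *Derl3* of the genes described here, 4 were under 1 FPKM, and the sum was 76.0 to 92.2 FPKM in WT and 63.5 to 73.5 FPKM in *Scd-1-/-* libraries. Of 10 myeloid markers, 7 were under 1 FPKM in every library with *Csf1r* at or near 0, *Cd14* was at 0.179 to 0.461 FPKM in WT and 1.14 to 1.89 FPKM in *Scd-1-/-* libraries, and the sum of the list was 8.92 to 20.5 FPKM in WT and 12.3 to 37.2 FPKM in *Scd-1-/-* libraries. The 5 natural killer cell markers summed to 1.67 to 2.21 FPKM in WT and 5.93 to 14.1 FPKM in *Scd-1-/-* libraries. The higher sum was that of *Klrb1c* (0.501 to 0.938 FPKM in WT, 1.66 to 9.39 FPKM in *Scd-1-/-*) and *Klre1* (0.688 to 1.71 FPKM in WT, 4.11 to 5.41 FPKM in *Scd-1-/-*). *Ncr1* was at 0 to 0.221 FPKM in WT and 0 to 0.0793 FPKM in *Scd-1-/-* libraries, and *Klra8* and *Klra4* were at or near 0. The part of these other cells in the results was not tested, and in bulk RNA fewer cells of a type cannot be told apart from less RNA per cell.

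The unfolded protein response adjusts the folding capacity of the ER. IRE1 (*Ern1*) splices *Xbp1* mRNA, ATF6 (*Atf6*) is cut in the Golgi to release a transcription factor, and PERK (*Eif2ak3*) phosphorylates eIF2alpha, which lowers translation while favouring that of ATF4 and, further on, CHOP (*Ddit3*). XBP1 and ATF6 are known for inducing ER chaperones and the machinery of ER-associated degradation (ERAD), and ATF4 and CHOP for inducing genes of amino acid metabolism, oxidative stress and cell death. A membrane rich in saturated lipid can engage these sensors without misfolded protein, and activated T cells, which secrete cytokines and granule proteins, use the same machinery.

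The ER chaperone genes carry known promoter elements, which are shown first because the response is read through them. Promoter windows of 250 bases before to 50 bases after the gene start were taken from RefSeq (GRCm38.p6), and 29 of the 34 genes had one. *Hyou1*, *Manf*, *Derl1*, *Atf6* and *Ppp1r15b* had none in that table. Both strands were searched for the ER stress response element ERSE (CCAAT, 9 bases of any kind, CCACG), for ERSE-II (ATTGG, 1 base of any kind, CCACG), for the unfolded protein response element UPRE (TGACGTGG) and for the C/EBP-ATF response element (TGATGNAA). ERSE and ERSE-II share CCACG, and the reverse complement of the UPRE holds it too. ERSE was in 39 of 32851 windows of all genes (0.119%) and in 9 of the 29 (31.0%), namely *Calr*, *Canx*, *Creld2*, *Derl3*, *Dnajc3*, *Hsp90b1*, *Hspa5*, *Pdia6* and *Syvn1*. ERSE-II was in 12 windows of all genes (0.0365%) and in those of *Dnajb11* and *Herpud1*. The UPRE was in 222 windows (0.676%) and in 0 of the 29, and the C/EBP-ATF element in 1304 windows (3.97%) and in that of *Herpud1*. The shares over all genes count windows, and those of the 29 count genes. As these elements are already known from ER chaperone genes, their shares are not a result of these data. A match is a description of these letters and no evidence of binding.

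The stretch before the start is given for *Hspa5*, the chaperone whose level is the usual readout of the response, and for *Eif2ak3* and *Ddit3*, which had the largest genotype differences among the 34 genes. Their positions are chr2:34771840-34772089, chr6:70844265-70844514 and chr10:127290543-127290792, all on the plus strand. Capitals mark the ERSE of *Hspa5*, whose first base lies 65 bases before the start. The windows of *Eif2ak3* and *Ddit3* hold none of the 4 elements.
Hspa5: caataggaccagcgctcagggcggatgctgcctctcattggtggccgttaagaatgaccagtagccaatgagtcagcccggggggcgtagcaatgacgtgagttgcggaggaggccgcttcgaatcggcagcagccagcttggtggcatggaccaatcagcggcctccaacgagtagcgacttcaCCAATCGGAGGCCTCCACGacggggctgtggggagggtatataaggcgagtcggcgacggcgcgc
Eif2ak3: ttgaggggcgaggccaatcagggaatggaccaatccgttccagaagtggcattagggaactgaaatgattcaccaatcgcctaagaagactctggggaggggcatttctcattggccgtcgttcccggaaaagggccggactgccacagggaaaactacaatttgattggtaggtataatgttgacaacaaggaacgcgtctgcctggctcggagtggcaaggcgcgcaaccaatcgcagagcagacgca
Ddit3: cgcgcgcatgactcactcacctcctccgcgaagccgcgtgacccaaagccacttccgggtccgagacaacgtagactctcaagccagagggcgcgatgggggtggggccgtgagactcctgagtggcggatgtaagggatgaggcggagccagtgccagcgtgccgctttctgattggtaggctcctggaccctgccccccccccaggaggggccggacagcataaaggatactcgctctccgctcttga

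Shorter stretches show how the element sits in other chaperone, isomerase and ERAD genes, with the ERSE or ERSE-II in capitals and each sequence read along its gene's strand. They lie at chr8:84847055-84847113 on the minus strand (*Calr*), at chr10:86705618-86705676 and chr10:86705513-86705571 on the minus strand (both matches of *Hsp90b1*), at chr12:17266471-17266529 (*Pdia6*), chr14:118937807-118937865 (*Dnajc3*), chr8:94386357-94386407 (*Herpud1*) and chr16:22857843-22857871 (*Dnajb11*), the last 4 on the plus strand. In *Calr* and in the second match of *Hsp90b1* the element runs on the opposite strand, so that it reads CGTGG first and ATTGG last. The ERSE-II of *Dnajb11* begins past the start, within the transcribed bases.
Calr: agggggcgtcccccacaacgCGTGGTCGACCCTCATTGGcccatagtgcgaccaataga
Hsp90b1, first: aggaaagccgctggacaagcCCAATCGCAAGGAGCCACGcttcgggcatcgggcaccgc
Hsp90b1, second: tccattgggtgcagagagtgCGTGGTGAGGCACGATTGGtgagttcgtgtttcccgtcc
Pdia6: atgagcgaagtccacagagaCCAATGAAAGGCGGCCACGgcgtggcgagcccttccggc
Dnajc3: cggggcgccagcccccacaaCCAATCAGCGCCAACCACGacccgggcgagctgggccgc
Herpud1: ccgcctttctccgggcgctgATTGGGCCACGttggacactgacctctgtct
Dnajb11: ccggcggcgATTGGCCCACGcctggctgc

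Teff cells expressed nearly the whole response, at levels that differed widely between genes. The mean over the 6 libraries was highest for *P4hb*, a protein disulfide isomerase, at 255 FPKM, followed by the lectin chaperone *Calr* at 222 FPKM and the disulfide isomerase *Pdia3* at 172 FPKM. Their ranks among all 34745 rows were 202, 230 and 301. *Sdf2l1*, a lumenal co-chaperone, followed at 120 FPKM, and *Hspa5* (BiP, the main ER chaperone and the brake on all 3 sensors) was at 48.4 FPKM. The sensors lay low in the order: *Eif2ak3* at 11.1 FPKM, *Atf6* at 4.98 FPKM and *Ern1* at 0.826 FPKM. *Derl3*, a derlin abundant in secretory cells, was lowest at 0.763 FPKM, with 11 to 21 counts per library.

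**Figure D1:**
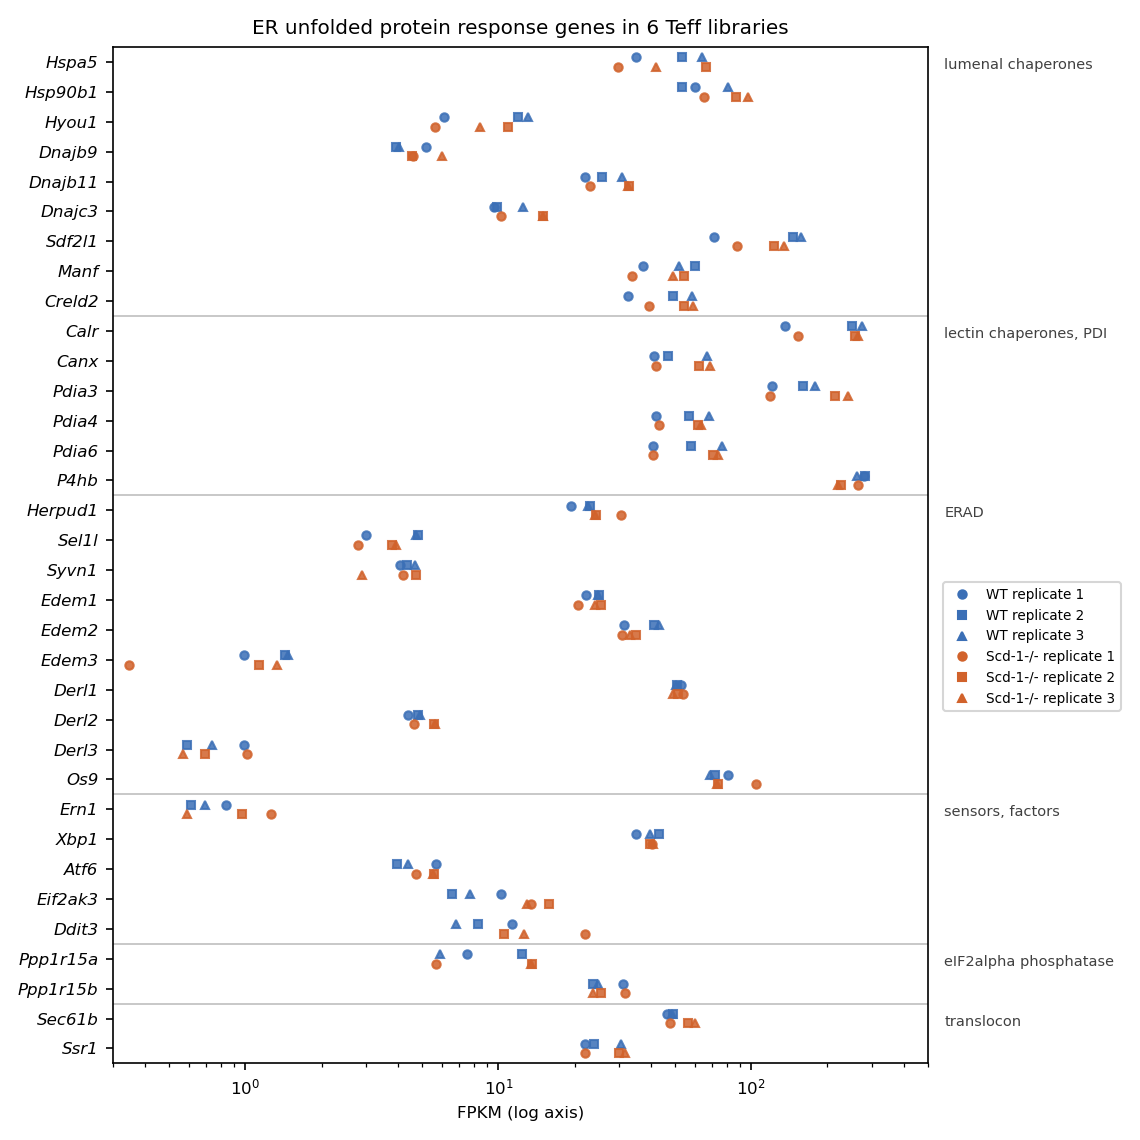
FPKM (log axis) of the 34 genes in each of the 6 libraries, grouped by role; blue marks WT, orange marks *Scd-1-/-*, and circles, squares and triangles are replicates 1, 2 and 3. Levels run from under 1 FPKM for *Ern1* and *Derl3* to over 200 FPKM for *Calr* and *P4hb*, and for most chaperones the circles of both genotypes lie to the left of the other 4 points.

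Between genotypes, the largest differences within the response were those of PERK and CHOP, while the chaperones, isomerases and ERAD genes showed small differences in both directions. In edgeR's quasi-likelihood test without a replicate term, none of the 32 genes had an adjusted p under 0.05, which 0.114% of all 9627 genes had. *Eif2ak3* and *Ddit3* were higher in *Scd-1-/-* at an unadjusted p under 0.05, against 5.42% of all genes, and 0 of the 32 were lower, against 4.68%. Past the study's thresholds (a change of 1 or more in size on the log2 scale and an unadjusted p under 0.001) were 0 of the 32 and 0.738% of all genes. With the replicate number as a block, which compares same-numbered libraries, *Eif2ak3* and *Ddit3* passed an adjusted p under 0.05 as higher, against 2.64% of all genes, and 0 were lower, against 2.06%. The block takes same-numbered libraries as pairs, which the data did not show for replicates 2 and 3. At an unadjusted p under 0.05 the block gave 5 genes higher (*Hsp90b1*, *Dnajc3*, *Pdia3*, *Eif2ak3* and *Ddit3*), against 11.3% of all genes, and 0 lower, against 11.2%. DESeq2 gave 1 gene higher at an adjusted p under 0.05, *Eif2ak3*, against 1.67% of the genes it adjusted, and 0 lower, against 1.09%.

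The median log2 fold change of the 32 genes (*Scd-1-/-* over WT) was 0.13 and that of all genes tested was -0.00051. It was above 0 in 22 of the 32 and in 49.9% of all genes. Leaving out *Scd-1-/-* replicate 1 moved the median to 0.22, and leaving out WT replicate 1 or *Scd-1-/-* replicate 3 moved it to 0.061 or 0.051. In same-numbered libraries the median log2 ratio was 0.028, 0.12 and 0.022 for replicates 1, 2 and 3, with 19, 24 and 17 of the 32 genes higher in *Scd-1-/-*. A total of 11 genes were higher in all 3 pairs, against 20.6% of all genes, and 6 were lower in all 3 (*Hyou1*, *Manf*, *P4hb*, *Sel1l*, *Edem2* and *Edem3*), against 24.7%. The summed level of the 32 genes was 1328, 1664 and 1793 FPKM in the WT libraries and 1400, 1762 and 1792 FPKM in the *Scd-1-/-* libraries, so replicate 1 was lowest in both genotypes and the genotypes overlapped.

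**Figure D2:**
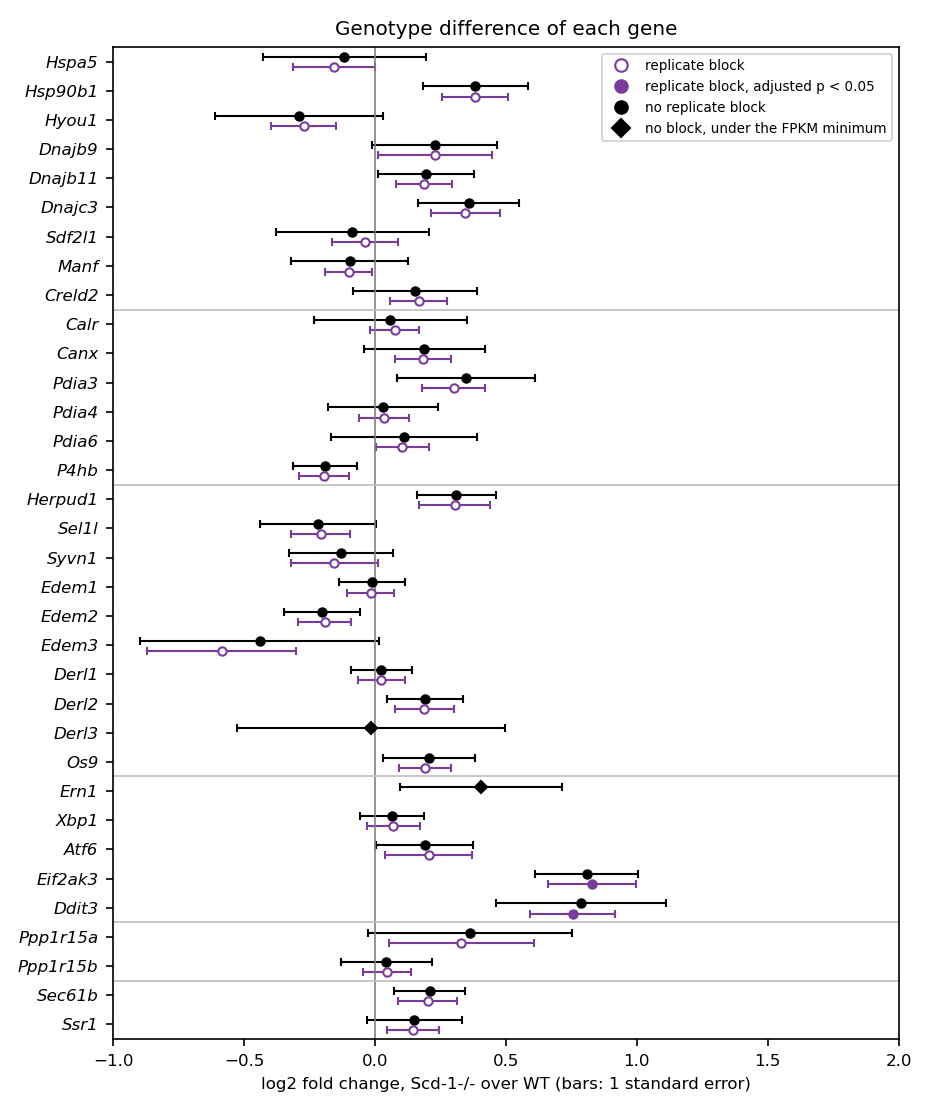
Log2 fold change (*Scd-1-/-* over WT) of each gene with 1 standard error, without the replicate block (black) and with it (purple, filled where the adjusted p is under 0.05); diamonds mark the 2 genes under the FPKM minimum. *Eif2ak3* (0.81) and *Ddit3* (0.79) lie furthest to the right, and the error bars of most other genes reach or come close to 0.

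*Eif2ak3* encodes PERK, the ER membrane kinase that phosphorylates eIF2alpha. Its level was 10.2, 6.58 and 7.70 FPKM in WT and 13.5, 15.9 and 13.0 FPKM in *Scd-1-/-* replicates 1, 2 and 3. All 3 *Scd-1-/-* libraries lay above all 3 WT libraries. WT libraries averaged 8.17 ± 1.86 FPKM and *Scd-1-/-* libraries 14.1 ± 1.56 FPKM (SD, n = 3 in each genotype). This was a log2 fold change of 0.81 (SE 0.196, a fold of 1.75), with an edgeR p of 0.0037 and an adjusted p of 0.203 without the block. With the replicate block the gene rose, with a log2 fold change of 0.83 (adjusted p = 0.0355), and DESeq2 gave an adjusted p of 0.0137. Over the other settings the log2 fold change ran from 0.67 to 1.05. Without WT replicate 1, the WT library with the highest *Eif2ak3*, the change was 1.02 and the adjusted p 0.036. The gene spans chr6:70844515-70905245 on the plus strand (GRCm38), and 485 of its 6026 exon bases are shared with a transcript on the opposite strand whose status is uncertain. The sources differ on whether the libraries kept strand, and without it reads from both strands cannot be told apart.

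CHOP, the product of *Ddit3*, is a transcription factor made late in PERK signalling. Its level was 11.3, 8.33 and 6.78 FPKM in WT and 21.9, 10.5 and 12.6 FPKM in *Scd-1-/-* replicates 1, 2 and 3. It was higher in *Scd-1-/-* in all 3 same-numbered pairs, but the groups overlapped, since WT replicate 1 lay above *Scd-1-/-* replicate 2. The log2 fold change was 0.79 (SE 0.326, a fold of 1.73), with an edgeR p of 0.0435 and an adjusted p of 0.473. With the replicate block *Ddit3* rose, with a log2 fold change of 0.75 (adjusted p = 0.0445). Without *Scd-1-/-* replicate 1 the log2 fold change was 0.41 (edgeR adjusted p = 0.495), and with replicates 2 and 3 alone it was 0.65 (adjusted p = 0.0575). The 10 myeloid markers summed to 37.2 FPKM in *Scd-1-/-* replicate 1, against 8.92 to 20.5 FPKM in the other 5 libraries. Most of that sum was *Cd68* (27.2 FPKM) and *Itgax* (8.21 FPKM), while *Lyz2*, *Csf1r*, *Adgre1*, *Fcgr1*, *S100a8* and *S100a9* were at 0 in that library and *Cd14* (1.14 FPKM) was lower than in *Scd-1-/-* replicates 2 and 3. The part of those cells in the *Ddit3* level was not tested. The gene lies at chr10:127290774-127296288 on the plus strand, and 186 of its 1713 exon bases overlap other annotated exons, among them those of *Mars* on the opposite strand.

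*Atf6* and *Xbp1* did not pass the test with or without the block, and *Ern1*, which lay under the FPKM minimum, did not pass the 1 fit it entered, without the block. *Atf6* was at 5.67, 3.97 and 4.41 FPKM in WT and 4.74, 5.56 and 5.50 FPKM in *Scd-1-/-* libraries. The groups overlapped, and replicate 1 went the opposite way to the other 2 pairs (log2 fold change 0.19, SE 0.186, edgeR adjusted p = 0.817). With 1 library left out the change of *Atf6* ran from 0.083 to 0.37. *Ern1* was at 0.837, 0.610 and 0.694 FPKM in WT and 1.26, 0.967 and 0.587 FPKM in *Scd-1-/-* libraries. With 91 to 209 counts per library it was fitted among 17192 genes without the FPKM minimum, where its log2 fold change was 0.41 (SE 0.309, adjusted p = 0.755), and the highest and the lowest library were both *Scd-1-/-*. *Xbp1*, the mRNA that IRE1 splices, was at 34.9, 43.0 and 39.9 FPKM in WT and 40.6, 39.9 and 40.8 FPKM in *Scd-1-/-* libraries. Its groups overlapped within a narrow range (log2 fold change 0.07, SE 0.123, edgeR adjusted p = 0.917). These values are sums over the gene and do not separate the spliced from the unspliced form of *Xbp1*.

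**Figure D3:**
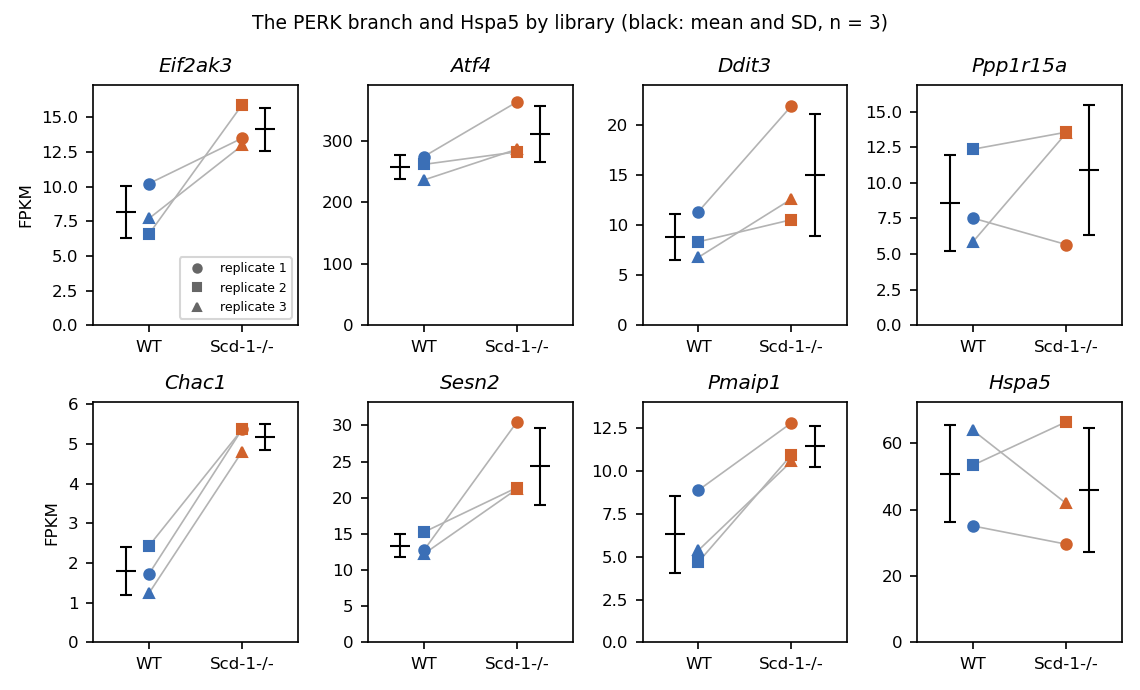
FPKM by genotype for *Eif2ak3*, *Atf4*, *Ddit3*, *Ppp1r15a*, *Chac1*, *Sesn2*, *Pmaip1* and *Hspa5*. Of 16 tested targets of PERK, ATF4 and CHOP, only the 3 that passed an adjusted p under 0.05 with the replicate block are shown (*Chac1*, *Sesn2* and *Pmaip1*). Grey lines join libraries of the same replicate number, and black marks give the mean and SD (n = 3). The lines rise in all 3 pairs for *Eif2ak3*, *Atf4*, *Ddit3*, *Chac1*, *Sesn2* and *Pmaip1*, and in 1 of 3 pairs for *Hspa5*.

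The subunits that direct phosphatase to eIF2alpha, and so oppose PERK, did not pass the test. *Ppp1r15a* (GADD34), the inducible subunit, was at 7.52, 12.4 and 5.87 FPKM in WT and 5.67, 13.6 and 13.5 FPKM in *Scd-1-/-* libraries, with overlapping groups and a log2 fold change of 0.36 (SE 0.390, edgeR adjusted p = 0.835). With 1 library left out it ran from 0.14 (without WT replicate 3) to 0.72 (without WT replicate 2). *Ppp1r15b*, the constitutive subunit, had a log2 fold change of 0.04 (SE 0.174).

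*Hspa5*, whose mRNA is the common readout of the response, was at 35.1, 53.5 and 63.9 FPKM in WT and 29.6, 66.5 and 41.9 FPKM in *Scd-1-/-* libraries. The groups overlapped throughout, and replicate 1 was lowest in each. The log2 fold change was -0.12 (SE 0.311, edgeR adjusted p = 0.941), and the log2 ratios of the pairs were -0.25, 0.31 and -0.61. Without *Scd-1-/-* replicate 1 it was 0.12 and without WT replicate 3 it was 0.062, so leaving out either library turned its sign. The spread between libraries of a genotype was thus larger than the difference between genotypes.

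The 9 chaperones and co-chaperones of the lumen, *Hspa5* included, split in direction, with 5 above 0 and 4 below. Their log2 fold changes ran from -0.29 to 0.38 with a median of 0.15. The highest was that of *Hsp90b1* (GRP94, the HSP90 of the ER), at 0.38 (SE 0.201), with 60.1, 53.4 and 81.0 FPKM in WT and 64.8, 87.3 and 96.9 FPKM in *Scd-1-/-* libraries. Its groups overlapped, all 3 pairs were higher in *Scd-1-/-*, and the adjusted p was 0.585 without and 0.13 with the block in edgeR. *Dnajc3* (P58IPK, a BiP co-chaperone) had a similar difference of 0.36 (SE 0.193), with 9.59, 9.88 and 12.5 FPKM in WT and 10.2, 15.03 and 14.97 FPKM in *Scd-1-/-* libraries, higher in all 3 pairs. The lowest was that of *Hyou1* (a nucleotide exchange factor of BiP), at -0.29, with 6.11, 12.0 and 13.1 FPKM in WT and 5.61, 10.9 and 8.44 FPKM in *Scd-1-/-* libraries, and it ran from -0.55 (without WT replicate 1) to -0.075 (without *Scd-1-/-* replicate 1) with 1 library left out. The co-chaperones *Dnajb9* (0.23), *Dnajb11* (0.19) and *Sdf2l1* (-0.09), the secreted ER stress protein *Manf* (-0.10) and *Creld2* (0.15) lay between. *Sdf2l1* and *Manf* turned positive without *Scd-1-/-* replicate 1 and without WT replicate 2, *Sdf2l1* also without WT replicate 3, and *Creld2* turned negative without WT replicate 1.

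The lectin chaperones and disulfide isomerases differed as little. Their median log2 fold change was 0.08, and 5 of 6 were above 0. *Pdia3* (ERp57, the isomerase that works with calnexin and calreticulin and in loading of MHC class I) was at 120.2, 160.4 and 179 FPKM in WT and 119, 214 and 241 FPKM in *Scd-1-/-* libraries. Replicate 1 was alike in both genotypes and replicates 2 and 3 were higher in *Scd-1-/-* (log2 fold change 0.35, SE 0.264, edgeR adjusted p = 0.739, with the block 0.196). With 1 library left out the change ran from 0.14 (without *Scd-1-/-* replicate 3) to 0.59 (without *Scd-1-/-* replicate 1). With replicates 2 and 3 alone, *Pdia3* (0.46, adjusted p = 0.0312) and *Eif2ak3* were the genes of the 32 higher at an adjusted p under 0.05, against 6.53% of all genes, and 0 were lower, against 6.07%. *P4hb* (the canonical disulfide isomerase) went the other way, with 280.1, 281 and 262 FPKM in WT and 264, 226 and 219.7 FPKM in *Scd-1-/-* libraries (log2 fold change -0.19, SE 0.122). Only *Scd-1-/-* replicate 1 reached into its WT range. The lectins *Canx* (calnexin, 0.19) and *Calr* (calreticulin, 0.06) and the isomerases *Pdia6* (0.11) and *Pdia4* (0.03) lay near 0, and the signs of the last 3 changed without WT replicate 1 and without *Scd-1-/-* replicate 3, those of *Calr* and *Pdia4* also without *Scd-1-/-* replicate 2. *Canx* ran from 0.038 to 0.40 with 1 library left out.

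Of 9 ERAD genes tested, 4 were above 0 and 5 below, with a median log2 fold change of -0.01. *Herpud1* (a membrane scaffold of the degradation complex and an early target of the response) was at 19.3, 23.0 and 22.5 FPKM in WT and 30.6, 24.2 and 24.1 FPKM in *Scd-1-/-* libraries. *Herpud1* and *Eif2ak3* were the genes of the 32 whose 3 *Scd-1-/-* libraries all lay above WT, against 7.67% of all genes, and for 0 of the 32 did they all lie below, against 8.32%. The margin of *Herpud1* was narrow outside *Scd-1-/-* replicate 1, and its log2 fold change of 0.31 (SE 0.150) had an edgeR adjusted p of 0.553 without and 0.237 with the block. Without that library the change was 0.18. *Os9*, a lectin that brings misfolded glycoproteins to the complex, was likewise highest in that library, with 80.8, 71.6 and 68.9 FPKM in WT and 104.7, 73.8 and 73.1 FPKM in *Scd-1-/-* libraries (log2 fold change 0.21, but 0.012 without *Scd-1-/-* replicate 1). The ligase complex itself, *Sel1l* (-0.22) with *Syvn1* (HRD1, -0.13), and the mannosidase-like *Edem1* (-0.01), *Edem2* (-0.20) and *Edem3* (-0.44, SE 0.456) had log2 fold changes below 0. *Syvn1* turned positive without *Scd-1-/-* replicate 3, and *Edem1* without *Scd-1-/-* replicate 1 or WT replicate 2. *Sel1l* ran from -0.40 to -0.082 with 1 library left out. *Edem3* was at 0.984, 1.43 and 1.47 FPKM in WT and 0.347, 1.13 and 1.33 FPKM in *Scd-1-/-* libraries, so its value rests largely on *Scd-1-/-* replicate 1 (-0.045 without it). The derlins, channel proteins of ERAD, had log2 fold changes of 0.02 (*Derl1*), 0.19 (*Derl2*) and -0.02 (*Derl3*, fitted without the FPKM minimum). The translocon subunits *Sec61b* and *Ssr1*, through which new proteins enter the ER, had log2 fold changes of 0.21 (SE 0.136) and 0.15 (SE 0.180).

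More of these genes were separated by replicate 1 than by genotype, as was so for all genes tested. Of all genes, the 3 *Scd-1-/-* libraries all lay above WT for 7.67% and all below for 8.32%. The splits also differ in size, with 2 against 4 libraries for replicate 1 and 3 against 3 for genotype. Both replicate 1 libraries, WT and *Scd-1-/-*, lay below the other 4 libraries for 18 of the 32 genes, against 23.0% of all genes tested, and above them for 3 (*Derl1*, *Os9* and *Ppp1r15b*), against 21.6%. On TMM-scaled counts, 17 genes lay below, against 21.1% of all genes, *Sec61b* being the gene lost. The 18 comprised 6 of the 9 lumenal chaperones (*Hspa5*, *Hyou1*, *Dnajb11*, *Sdf2l1*, *Manf* and *Creld2*), 5 of the 6 lectins and isomerases (all but *P4hb*), 5 of the 9 ERAD genes (*Sel1l*, *Edem1*, *Edem2*, *Edem3* and *Derl2*) and both translocon subunits. No sensor or transcription factor was among them.

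The size of this separation differed between the groups of genes. The median log2 ratio of mean FPKM, replicate 1 over the other replicates, was -0.59 for the lumenal chaperones, -0.64 for the lectins and isomerases, -0.21 for the ERAD genes and 0.12 for the 4 sensors and factors, against -0.02 for all genes. For *Hspa5* the mean was 32.4 FPKM in the replicate 1 libraries and 56.4 FPKM in the other 4, a log2 ratio of -0.80. *Calr* had 135 and 152 FPKM in WT and *Scd-1-/-* replicate 1 and 250.5 to 275 FPKM in the other 4 libraries. *Ddit3* had a ratio of 0.80, the opposite sign. These ratios are given without a test, because no source says what a replicate number stands for, and what set replicate 1 apart was not tested.

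**Figure D4:**
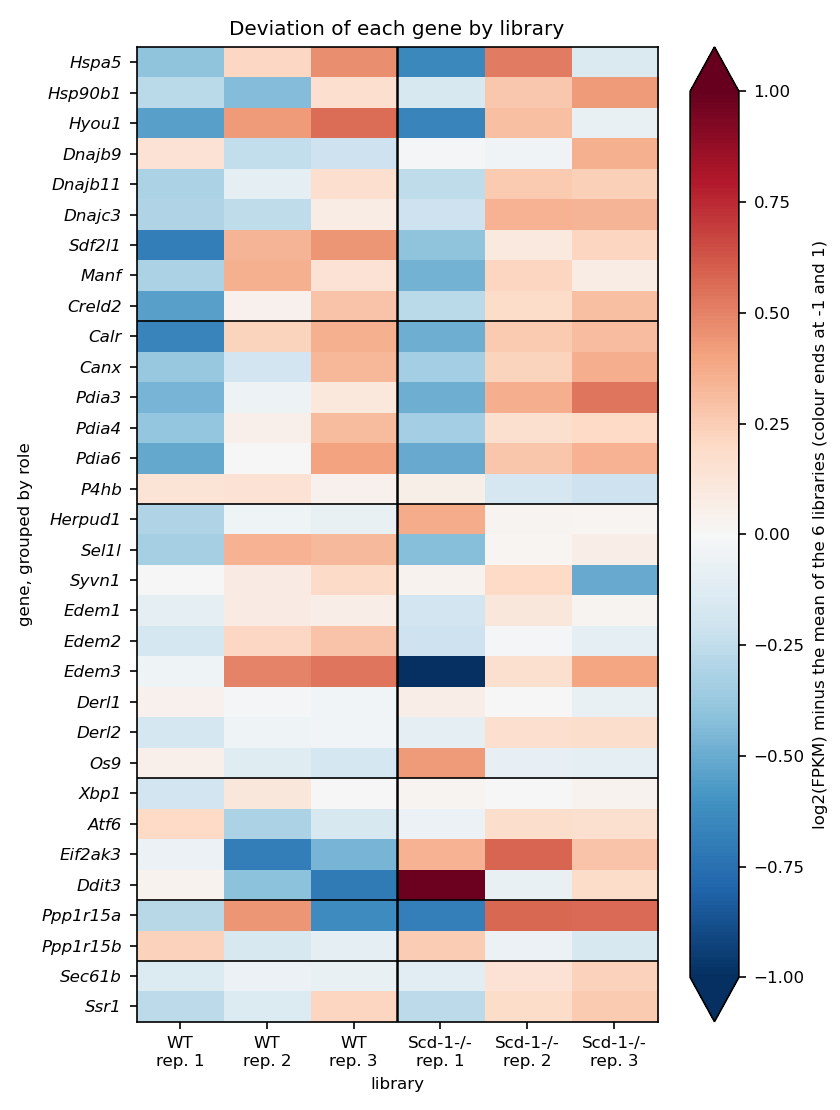
Deviation of log2(FPKM) from the gene's mean over the 6 libraries, for the 32 genes tested (rows, grouped by role) in each library (columns); blue is below and red above the mean. In the chaperone and isomerase rows other than *Dnajb9* and *P4hb* the replicate 1 columns of both genotypes are blue, and the *Eif2ak3* and *Ddit3* rows change colour between genotypes, from blue or pale in WT to red or pale in *Scd-1-/-*.

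Other genes of the pathway were taken from 7 lists with 160 genes found in the files. Of 16 tested targets of PERK, ATF4 and CHOP, 3 rose and 0 fell at an adjusted p under 0.05 with the replicate block in edgeR, against 2.64% and 2.06% of all genes. DESeq2 gave 2 higher at that threshold (*Chac1* and *Sesn2*, not *Pmaip1*) and 0 lower, against 1.67% and 1.09% of the genes it adjusted. With replicates 2 and 3 alone, 4 were higher (*Chac1*, *Sesn2*, *Pmaip1* and *Bcl2l11*) and 2 lower (*Atf3* and *Ddit4*), against 6.53% and 6.07% of all genes. *Chac1* (a glutathione-degrading enzyme induced by ATF4) was at 1.73, 2.44 and 1.25 FPKM in WT and 5.38, 5.37 and 4.81 FPKM in *Scd-1-/-* libraries, with 29 to 56 counts per WT library. Its groups did not overlap, and with the block it rose, with a log2 fold change of 1.58 (adjusted p = 0.0181), against 1.54 (SE 0.302, adjusted p = 0.118) without the block. *Sesn2* (sestrin 2, a stress-induced inhibitor of mTORC1) was at 12.7, 15.2 and 12.2 FPKM in WT and 30.5, 21.4 and 21.2 FPKM in *Scd-1-/-* libraries, and rose by 0.87 (adjusted p = 0.0259 with the block, 0.164 without). *Pmaip1* (NOXA, a pro-apoptotic BH3-only protein) was at 8.87, 4.69 and 5.37 FPKM in WT and 12.8, 10.9 and 10.6 FPKM in *Scd-1-/-* libraries, and rose by 0.92 (adjusted p = 0.0296 with the block, 0.317 without). For all 3 genes each *Scd-1-/-* library lay above each WT library.

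The other 13 genes of that list did not pass the test in either fit, with log2 fold changes from -0.59 (*Ddit4*) to 0.49 (*Bcl2l11*, the BH3-only protein BIM). The median of the 16 was 0.11, with 10 above 0. *Bbc3* (PUMA, another BH3-only protein, 0.48) was higher in all 3 pairs, with an edgeR adjusted p of 0.0588 with the block. *Atf3* (a transcription factor induced by ATF4, -0.11) had pairs in opposite directions, with log2 ratios of 0.78, -0.52 and -0.67 for replicates 1, 2 and 3. *Vldlr*, a lipoprotein receptor on this list that lay under the FPKM minimum, was lower in *Scd-1-/-*, with 86, 87 and 92 counts in WT and 22, 6 and 13 counts in *Scd-1-/-* libraries (log2 fold change -2.75, SE 0.433, edgeR adjusted p = 0.0309 among the 17192 genes). *Atf4* itself, named here after its values were seen, was at 274, 262 and 236 FPKM in WT and 363, 282 and 286 FPKM in *Scd-1-/-* libraries. Its *Scd-1-/-* libraries all lay above WT, with a log2 fold change of 0.29 (SE 0.148, edgeR adjusted p = 0.565 without and 0.141 with the block). With 1 library left out the change ran from 0.16 to 0.36. ATF4 protein is set largely by translation, which RNA levels do not show.

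In the other 6 lists no tested gene passed an adjusted p under 0.05 in the fit with or without the block, against the 2.64% higher and 2.06% lower among all genes with it. With replicates 2 and 3 alone, *Sec63*, *Sec11c*, *Erp44* and *Bet1* passed as higher and *Ero1l*, *Nfe2l2*, *Nfya* and *Sec24c* as lower, against 6.53% and 6.07% of all genes. With DESeq2, *Dnajc1* passed as higher and *Nfya* as lower, against 1.67% and 1.09%. In the list of translocon, signal peptidase and oligosaccharyltransferase genes, 20 of 27 were above 0 with a median log2 fold change of 0.11. The smallest p-values without the block were those of *Sec11c* (a signal peptidase subunit, 0.51, edgeR adjusted p = 0.33, with the block 0.0544) and *Sec63* (a translocon partner of BiP, 0.42). Among 24 further folding and oxidation genes, *Dnajc1* (an ER membrane J-protein, 0.53, SE 0.141, adjusted p = 0.248) and *Erp44* (which retains disulfide-linked proteins in the early secretory pathway, 0.45, SE 0.161) had the smallest p-values without the block, and 13 were above 0. Among 24 further ERAD genes 18 were above 0 with a median of 0.12. *Erlec1* (a lectin like *Os9*, 0.33) and *Ngly1* (which removes glycans from retrotranslocated proteins, 0.31) had the smallest p-values without the block, and the log2 fold changes of the list ran from -0.40 (*Erlin1*) to 0.34 (*Rhbdd1*). Among 18 further signalling genes 7 were above 0. The smallest p-values without the block belonged to *Nfya* (a subunit of the CCAAT-binding factor NF-Y, -0.51, SE 0.145, edgeR adjusted p = 0.277) and *Nfe2l2* (NRF2, a substrate of PERK, -0.80, SE 0.241, adjusted p = 0.299). *Nfe2l2* was at 3.36, 5.76 and 5.83 FPKM in WT and 2.80, 2.78 and 2.83 FPKM in *Scd-1-/-* libraries, with no overlap. Among 27 ER to Golgi transport genes *Sec24c* (a COPII coat subunit, -0.38) and *Bet1* (a vesicle SNARE, 0.70) had the smallest p-values without the block, in opposite directions. Only 2 of 6 substrates of IRE1-dependent decay were tested, *Bloc1s1* (0.11) and *Hgsnat* (-0.03).

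The genotype difference had a similar median with and without these promoter elements. The 10 tested genes with an ERSE or ERSE-II had a median log2 fold change of 0.17, from -0.13 (*Syvn1*) to 0.38 (*Hsp90b1*), and the 17 tested genes whose window held neither had a median of 0.15, from -0.44 (*Edem3*) to 0.81 (*Eif2ak3*). Of the 10, 6 lay below the other libraries in both replicate 1 libraries, and of the 17, 10 did. Among 125 other pathway genes with a window, an ERSE was in that of *Ero1b* and an ERSE-II in that of *Krtcap2*, the UPRE in 9 and the C/EBP-ATF element in 11, *Chac1*, *Atf3*, *Trib3* and *Asns* among them.

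**Figure D5:**
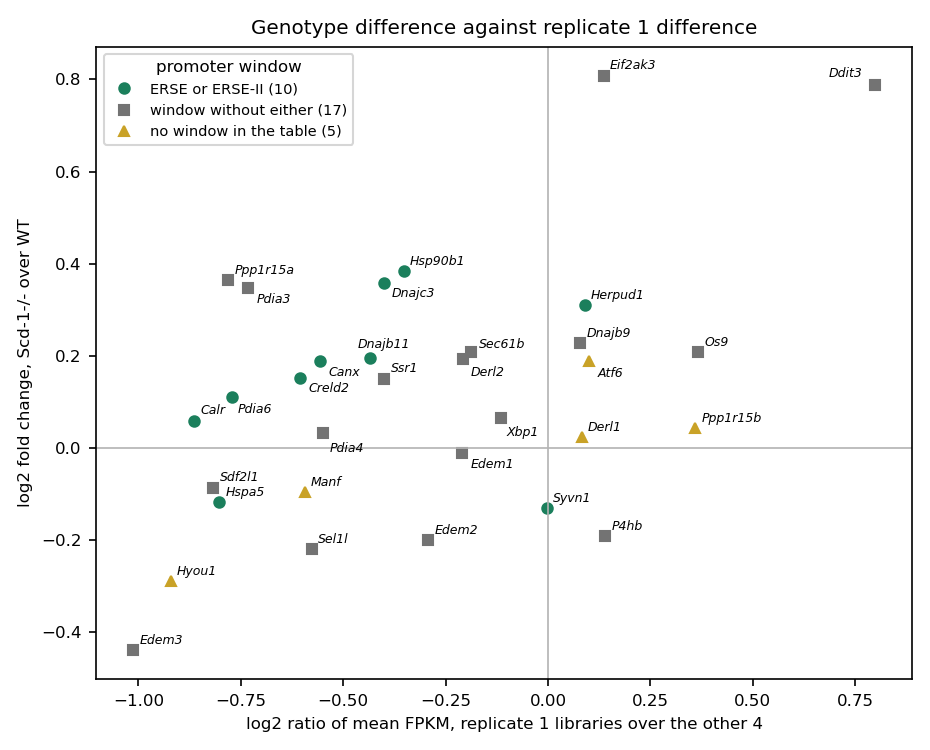
Log2 fold change, *Scd-1-/-* over WT (vertical axis), against the log2 ratio of mean FPKM of the replicate 1 libraries over the other 4 (horizontal axis) for the 32 genes tested, coloured by promoter class. Green points (ERSE or ERSE-II) and grey squares (neither) are interspersed, most chaperones lie left of 0 on the horizontal axis, and *Eif2ak3* and *Ddit3* stand apart at the top.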

How the data were processed

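RNA of Teff cells was sequenced as 6 libraries. Methods and labels differ on extraction and library kit (column and stranded total RNA kit, or Trizol, polyA RNA and another kit), so whether counting used strand is unknown. The submitters' processing notes name FastQC, HISAT2, StringTie 1.3.0 and GRCm38. The authors deposited raw counts per gene, whole numbers that are not normalized. The authors also deposited FPKM, scaled by gene length and the library's total count. Counts were tested with edgeR 4.0.16 (quasi-likelihood, TMM scaling, mean FPKM of at least 1, Benjamini-Hochberg adjustment over 9627 genes, R 4.3.3); genes under the minimum were taken from a fit to 17192 genes. A count of 0 allows up to 3 counts, and depth limits genes such as *Derl3*. Alternatives (14) were the replicate block, DESeq2 1.42.0, median-of-ratios scaling, limma 3.58.1 on log2(FPKM + 1) and log2(FPKM + 0.1), no minimum or one of 5 FPKM, replicates 2 and 3 only, and each library left out. The fits were also run on simulated counts drawn without a replicate effect. That run cannot show how the replicate block behaves on these libraries, and no result here rests on it.

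Deviations from group means correlated between same-numbered libraries with r of 0.583, 0.297 and 0.459 over 9627 genes, all above 0.1, so the numbers were taken as pairs, although the crossed pairs of replicates 2 and 3 also had r of 0.357 and 0.173 and no source says what a number stands for. The genes, lists and alternatives were chosen with earlier results of these data known. The rule gave values in every library for genes with an adjusted p under 0.05 in either fit or an unadjusted p under 0.05 without the block. It also gave them for the sensors, *Xbp1*, *Ddit3* and *Hspa5*. Of each other list it named up to 4 genes past the adjusted threshold or else the 2 with the smallest p. Other genes shown by library (such as *Ppp1r15a*, *Hyou1*, *P4hb*, *Os9* and *Edem3*) and *Atf4*, *Vldlr*, *Bbc3*, *Atf3*, *Nupr1* and *Ddit4* were chosen after their values were seen. Positions are from GENCODE M21 (GRCm38), where 98.6% of rows matched by identifier. Of 30 RefSeq promoter windows, 27 continued into a GENCODE transcript after the start. *Marchf6* and *Hm13* were not found by symbol.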

Additional observations from a re-analysis of the deposited data

How the results depend on the processing

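For the log2 fold changes of named genes, 607 values under an alternative kept direction and side of the threshold, 24 passed the threshold only under the alternative and 29 reversed. No gene described here was higher at an adjusted p under 0.05 without the replicate block. There were 2 with the replicate block, 1 with DESeq2, 2 with replicates 2 and 3 only, and 0 to 1 when 1 library was left out. At an unadjusted p under 0.05, 2 genes were higher, against 5.42% of all genes. There were 5 with the replicate block, against 11.3%, 7 with replicates 2 and 3 only, and 1 to 4 when 1 library was left out. Lower at that p were 0 genes, against 4.68% of all genes. There were 3 with replicates 2 and 3 only (*Hyou1*, *P4hb*, *Edem2*), and 0 to 1 (*Edem2*, without WT replicate 1) when 1 library was left out. Past the study's thresholds were 0, against 0.738% of all genes, 1 with replicates 2 and 3 only and 0 to 1 without 1 library (*Eif2ak3*, without WT replicate 1). No share of all genes is given for the fits with 1 library left out. None is given either for replicates 2 and 3 only at an unadjusted p or past the study's thresholds. Those counts are therefore not read as a result about these genes. The median log2 fold change was 0.051 to 0.22 when 1 library was left out. The replicate block reversed no gene. With 1 library left out, the log2 fold change changed sign within -0.48 to 0.12 for *Hspa5*, -0.36 to 0.093 for *Sdf2l1*, -0.25 to 0.079 for *Manf*, -0.037 to 0.32 for *Creld2*, -0.19 to 0.27 for *Calr*, -0.12 to 0.18 for *Pdia4*, -0.081 to 0.34 for *Pdia6*, -0.28 to 0.046 for *Syvn1*, -0.081 to 0.067 for *Edem1*, -0.014 to 0.061 for *Derl1*, -0.091 to 0.19 for *Ppp1r15b* and -0.13 to 0.067 for *Hgsnat*. With replicates 2 and 3 only, *Edem1* was at 0.030 and *Xbp1* at -0.0044. The cause was not tested. Depth limits *Derl3*, *Ern1* and *Edem3*.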

Other observations

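*Selenos* and *Selenok*, selenoproteins of the ERAD complex, had no row under these symbols, but rows with the symbols *Vimp* and *Selk* carry the same genes' identifiers and were not counted above. *Vimp* was at 17.4, 15.2 and 15.3 FPKM in WT and 17.8, 20.6 and 19.6 FPKM in *Scd-1-/-* libraries, with all *Scd-1-/-* libraries above WT (log2 fold change 0.30, SE 0.144, edgeR adjusted p = 0.544, with the replicate block 0.211). *Selk* was at 84.5, 69.6 and 75.5 FPKM in WT and 75.3, 68.0 and 74.8 FPKM in *Scd-1-/-* libraries, and the groups overlapped (log2 fold change -0.05, SE 0.137, adjusted p = 0.941). *Nupr1*, a gene of the PERK, ATF4 and CHOP target list, lay under the FPKM minimum. It had 27, 28 and 9 counts in WT and 71, 66 and 114 counts in *Scd-1-/-* libraries (log2 fold change 1.90, edgeR adjusted p = 0.135 among 17192 genes). *Ddit4*, an inhibitor of mTORC1, was at 138, 308 and 299.6 FPKM in WT and 174, 157 and 154 FPKM in *Scd-1-/-* libraries, so that WT replicate 1 lay below all 3 *Scd-1-/-* libraries and the other WT libraries lay above them (log2 fold change -0.59, adjusted p = 0.532).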
